A study of Mus musculus with 39 samples.

Results

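The 10 genes described here encode heat shock proteins: Hspa1a, Hspa1b, Hspa8, Hsph1, Hsp90aa1, Hsp90ab1, Dnaja1, Dnajb1, Hspb1 and Hspe1. They were taken by symbol from a table of 43430 genes, each symbol matched 1 row, and all 10 are described below across the 8 groups of libraries. RNA was sequenced from 2 kinds of flow-sorted lung cells of C57BL/6J mice, 20 libraries of monocytes and 19 of alveolar macrophages. The monocytes came from naïve mice, and the macrophages, labelled as having low Siglec F, came from animals treated with bleomycin, which damages the lung and is followed by fibrosis. Each cell type was sampled at 2 ages, young and old, after saline or after ISRIB. ISRIB is a compound that keeps the translation initiation factor eIF2B active and so blocks the integrated stress response. Every group had 5 libraries except young ISRIB macrophages, with 4, and no group carried a transgene or a deleted allele by its labels. The sample labels put the young mice at 8 to 12 weeks and the old ones above 18 months. The series text instead gives 3 to 5 months and 18 to 24 months, with ISRIB injected daily from day 7 and collection at day 21 after bleomycin. Only the macrophages were exposed to bleomycin, so cell type and bleomycin cannot be told apart in any difference between macrophages and monocytes. The labels do not say whether libraries came from separate mice or from pools, so the p-values measure only the spread between these libraries.

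Heat shock proteins are chaperones: they bind unfolded or partly folded proteins, keep them from aggregating and help them fold. In the Hsp70 system, J-domain proteins deliver clients and stimulate the ATPase of Hsp70, and nucleotide exchange factors such as the Hsp110 protein Hsph1 release them. Clients such as kinases and steroid receptors then pass to the Hsp90 dimer. Heat, oxidants and other conditions that unfold proteins free heat shock factor 1, Hsf1, which binds repeats of the unit GAA in alternating orientation (heat shock elements) in promoters of these genes. Hspa1a and Hspa1b are the strongly inducible Hsp70 genes, whereas Hspa8 and Hsp90ab1 are made in nearly all cells without stress. In cells isolated from tissue, enzymatic digestion and sorting are known to switch on immediate early genes and inducible heat shock genes.

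Heat shock elements stood in the promoters of most members for which a promoter was at hand. The 250 bases upstream of each annotated start, from RefSeq on GRCm38.p6, were available for 7 of the 10 members and were searched on both strands. GAANNTTC or TTCNNGAA, which are 2 adjoining units in either order, occurred in 6 of these 7 genes, counting a gene when any of its annotated starts had a match. By the same count 14.5% of all 27025 mouse genes had one, and 12.8% of all 32851 promoters of that length held at least 1. Dnaja1 had the match at 1 of its 3 starts. The stretches are printed below, 5′ to 3′ on the strand of the gene, to show the element of each gene; capitals mark the matched units.
Hspe1: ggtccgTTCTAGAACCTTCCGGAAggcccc
Hspa1a: ctgctgGAAGATTCctggcc
Hspa1b: ctgctgGAAGATTCctggcc
Dnaja1: cctctaGAAAATTCtacgag
Hsph1: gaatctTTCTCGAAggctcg
Hspb1: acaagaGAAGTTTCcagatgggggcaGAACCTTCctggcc
The Hspe1 stretch lies at chr1:55088053-55088082 on the plus strand, -95 to -66 from the start. It holds 2 overlapping matches of the longer motif GAANNTTCNNGAA, 3 units in a row, counting both strands, so its capitals run on beyond 3 units. At least 1 match of this motif occurred in 153 of the 32851 promoters (0.466%). The bases of the Hspe1 stretch also lie in the promoter of Hspd1, which is transcribed the other way. The Hspa1a stretch at chr17:34972247-34972266 and the Hspa1b stretch at chr17:34959329-34959348, both on the minus strand, sit at -110 to -91 and have the same letters. The whole 250 bases upstream of these 2 genes differ at 3 positions. The stretches of Dnaja1 (chr4:40722338-40722357, plus), Hsph1 (chr5:149636356-149636375, minus) and Hspb1 (chr5:135887796-135887835, plus) each carry 2-unit matches that overlap no 3-unit match. These are matches of letters, and binding was not measured. Dnajb1 had no match in its windows. Hspa8, Hsp90aa1 and Hsp90ab1 had no entry in the promoter table.

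Library totals ran from 4595331 to 16056708 counts (median 8628240). Of the cell type markers checked singly, all but Fcgr1 separated the labelled cell types. Ly6c2, a marker of classical monocytes, was at 266 to 654 CPM (counts-per-million) in monocytes and at 0.197 to 7.58 in macrophages. Ccr2 was at 993 to 3773 CPM in monocytes and still at 57.0 to 458 in macrophages. Mertk, a receptor of macrophages for dying cells, was at 331 to 621 CPM in macrophages and at 0.482 to 7.11 in monocytes. Siglecf was at 47.2 to 156 against 0 to 1.56, and Cd68 at 1037.5 to 1333.5 against 306 to 445. Marco was at 1.38 to 130 against 0 to 0.844. The macrophage marker Fcgr1 overlapped, at 112 to 185 CPM in macrophages and 66.8 to 200 in monocytes. CPM here is computed on library sizes after TMM scaling over all 39 libraries.

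The genes lie on 7 chromosomes (GRCm38, GENCODE vM21), and some share sequence with other genes. Hspa1a (chr17:34969190-34972156, minus) and Hspa1b (chr17:34956436-34959238, minus) are neighbours and near copies: 66.3% of the 50-base words in Hspa1a transcripts and 62.3% of those in Hspa1b also occur in another gene. The split of reads between them is therefore uncertain, and their summed counts were tested as well. Hspa8 (chr9:40800984-40810087, plus), Hsp90aa1 (chr12:110690605-110702728, minus) and Dnaja1 (chr4:40722150-40737149, plus) have processed copies and share 52.7%, 58.5% and 28.8% of their words. Hsp90ab1 (chr17:45567775-45573271, minus) and Dnajb1 (chr8:83608193-83612653, plus) share 4.49% and 0.441%. Hsph1 (chr5:149614287-149636376, minus) shares none. Hspb1 (chr5:135887919-135889563, plus) shares 51.7% and Hspe1 (chr1:55088132-55091307, plus) 8.20%. Hspa1a, Dnaja1 and Hspe1 overlap genes on the other strand. For Hspa1a that gene is Gm20481, which had no count in any library. How the counting treated strand and shared reads is not given in the sources used here.

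The label of cytosolic proteins fits 9 of the 10 genes. Hspe1 encodes Hsp10, the lid of the chaperonin barrel built by Hspd1 in the mitochondrial matrix, and between the cell types it differed in the same direction as Hspd1 (below). Hspb1, the small heat shock protein Hsp27 that holds unfolded proteins without using ATP, was barely detected. It had 78 counts in all 39 libraries together, 16 libraries at 0, and at most 10 counts in any library. Its highest level was 0.719 CPM in monocytes and 1.61 CPM in macrophages. It did not pass the filter on low counts, so 9 members were tested in every comparison.

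Compared per length of exon, the constitutive genes lay far above the rest in both cell types. The length is that of all annotated exons of a gene merged. For Dnaja1 and Hsph1 it was 8629 and 7266 bases, beside longest transcripts of 5622 and 4764. The order of the lower genes therefore depends on the length used. Median levels in monocytes were 367 CPM per kilobase for Hsp90ab1 and 257 for Hspa8. They were followed by Hsp90aa1, the inducible Hsp90 isoform, at 27.6 CPM per kilobase, the J-domain gene Dnajb1 at 19.7, Hspe1 at 19.3, the J-domain gene Dnaja1 at 13.2, Hspa1b at 12.7, Hspa1a at 9.74, Hsph1 at 8.34 and Hspb1 at 0.225. In macrophages Hsp90ab1 was again first at 369 CPM per kilobase and Hspa8 next at 189. Hspe1 followed at 26.6, Hsp90aa1 at 22.5, Dnajb1 at 10.4, Hsph1 at 8.19 and Dnaja1 at 7.14. The inducible Hsp70 genes stood near the bottom of the macrophage order, with Hspa1a at 0.970 CPM per kilobase and Hspa1b at 0.868, and Hspb1 was at a median of 0. The ranges of genes with close medians overlapped, among them Hspa1a with Hspa1b in both cell types, Hsph1 with Dnaja1 in macrophages, and Dnajb1 with Hspe1 in monocytes.

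**Figure D1:**
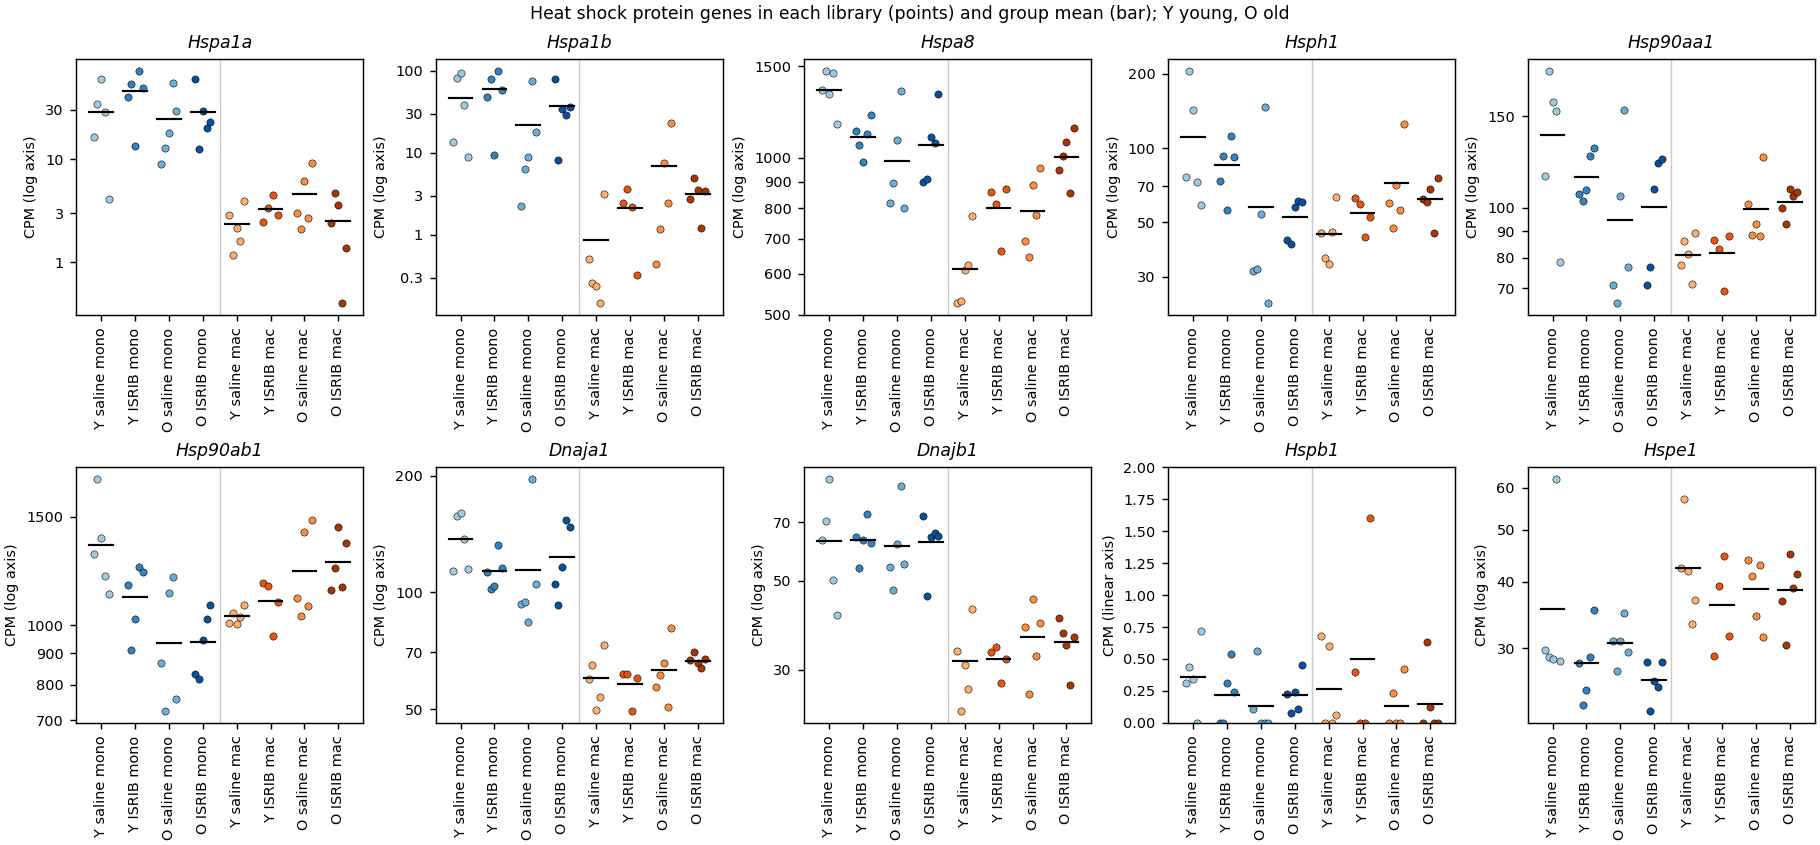
Level of each of the 10 genes in CPM (scaled by TMM; logarithmic axes, linear for Hspb1) in each of the 39 libraries, by cell type, age and treatment. Hspa1a lies between 4.08 and 71.7 CPM in monocytes and between 0.403 and 9.18 in macrophages, while Hsp90ab1 overlaps between the cell types throughout.

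Group levels, as mean ± SD in CPM with n = 5 (4 for young ISRIB macrophages), are given in the order young saline, young ISRIB, old saline and old ISRIB. Hspa1a was at 28.7 ± 21.0, 45.4 ± 21.3, 24.5 ± 18.2 and 28.7 ± 17.9 in monocytes and at 2.35 ± 1.07, 3.30 ± 0.871, 4.63 ± 2.98 and 2.5 ± 1.71 in macrophages. Hspa1b was at 47.3 ± 38.7, 59.4 ± 34.4, 22.2 ± 30.2 and 37.5 ± 25.6 in monocytes and at 0.860 ± 1.28, 2.14 ± 1.36, 6.99 ± 9.54 and 3.16 ± 1.35 in macrophages. For Hspa1b the SD exceeded the mean in 3 groups, old saline monocytes and the saline macrophages of both ages. Hsph1 was at 111 ± 62.0, 85.1 ± 21.1, 57.7 ± 51.2 and 52.3 ± 9.998 in monocytes and at 44.9 ± 11.7, 54.6 ± 8.55, 71.8 ± 30.9 and 62.3 ± 11.1 in macrophages. Hsp90aa1 was at 138 ± 41.4, 115 ± 12.5, 94.5 ± 36.6 and 100.4 ± 25.03 in monocytes and at 81.2 ± 7.15, 81.7 ± 8.75, 99.3 ± 15.4 and 103 ± 6.43 in macrophages. Hsph1 and Hsp90aa1 had their widest SD in the saline groups of monocytes. Dnaja1 was at 137 ± 22.5, 113 ± 12.1, 115 ± 46.3 and 123 ± 26.6 in monocytes and at 60.3 ± 9.18, 58.1 ± 5.89, 63.1 ± 11.3 and 66.7 ± 2.36 in macrophages. Dnajb1 differed little across groups within a cell type, with means from 60.9 to 63.2 in monocytes and from 31.5 to 36.2 in macrophages. Hspe1 was at 35.6 ± 14.97, 28.2 ± 4.6, 30.7 ± 2.79 and 26.2 ± 2.26 in monocytes and at 42.4 ± 9.10, 36.2 ± 7.17, 38.8 ± 5.48 and 38.5 ± 5.46 in macrophages. Hspb1 means lay between 0.131 and 0.500 CPM in all 8 groups. Hspa8 was at 1351 ± 123, 1096 ± 83.5, 988 ± 228 and 1060 ± 173 in monocytes and at 612 ± 99.5, 802 ± 95.8, 792 ± 130 and 1005 ± 110 in macrophages. Hsp90ab1 was at 1349 ± 235, 1112 ± 141, 935 ± 216 and 939 ± 114 in monocytes and at 1034 ± 30.3, 1094 ± 96.5, 1222 ± 209 and 1267 ± 133 in macrophages.

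The inducible Hsp70 genes were the members that differed most between the cell types. In saline, Hspa1a was at 16.3, 34.5, 59.7, 28.8 and 4.08 CPM in young monocytes and at 8.92, 12.7, 17.8, 54.0 and 28.9 CPM in old ones. In macrophages it was at 2.88, 1.18, 2.17, 1.62 and 3.89 CPM in young and at 3.00, 2.12, 6.14, 2.72 and 9.18 CPM in old mice. All but 1 young monocyte library, at 4.08, and 1 old one, at 8.92, lay above every saline macrophage library. Averaged over ages, Hspa1a was 7.79-fold lower in macrophages (log2 -2.96, SE 0.40, adjusted p = 1.87e-08; edgeR quasi-likelihood test with Benjamini-Hochberg adjustment, as for every adjusted p below unless another tool is named; standard errors are taken from the test statistic). Of all 13587 genes tested in this comparison, 35.8% were called higher and 34.2% lower at an adjusted p below 0.05, so a call alone says little here. Of the 9 tested members, 6 were called lower in macrophages and 1 higher. Their median log2 difference was -0.73, beside 0.00 over all genes tested.

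Hspa1b moved with its neighbour. It was at 13.7, 81.7, 93.3, 38.6 and 8.87 CPM in young saline monocytes and at 2.23, 6.45, 9.0, 75.2 and 18.1 CPM in old ones. In macrophages the young saline libraries were at 0.508, 0.262, 0.241, 0.147 and 3.14 CPM and the old ones at 0.444, 1.18, 7.56, 2.43 and 23.3 CPM. Levels spread widely within each group, and old monocytes overlapped old macrophages. The averaged difference was 11.4-fold (log2 -3.51, SE 0.61, adjusted p = 3.48e-06). With the counts of both genes summed it was log2 -3.21 (SE 0.48, adjusted p = 1.7e-07).

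The J-domain genes and Hspa8 were also lower in macrophages. Dnaja1, which serves Hsp70 in protein import and receptor folding, ranged from 83.8 to 196 CPM (median 114) over all monocyte libraries and from 49.4 to 80.7 CPM (median 61.6) over all macrophage libraries. It was the only member whose 20 monocyte and 19 macrophage libraries did not overlap, a pattern found for 21.0% of all genes tested, and in saline it was 2.03-fold lower in macrophages (adjusted p = 6.14e-10). Dnajb1, the heat-inducible J protein that targets Hsp70 to aggregates, ran from 41.0 to 89.7 CPM in monocytes and from 23.6 to 45.1 in macrophages and was 1.83-fold lower (adjusted p = 6.44e-08). Hspa8 ran from 802 to 1470 CPM in monocytes and from 526 to 1139 in macrophages and was 1.66-fold lower (adjusted p = 4.84e-09).

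The Hsp90 genes differed little. Hsp90aa1 was 1.27-fold lower in macrophages (log2 -0.35, SE 0.13, adjusted p = 0.0173). That call was lost with limma voom (-0.28, adjusted p = 0.0518) and without single libraries of monocytes: without replicate 2 of young saline monocytes the difference was -0.28 (adjusted p = 0.0544), and without replicate 4 of old saline monocytes -0.22 (adjusted p = 0.095). That library and replicates 2 and 3 of young saline monocytes were high for most inducible members. Without all of these the difference was -0.07 (adjusted p = 0.6), a setting chosen after seeing the data. Dropping libraries picked as high lowers the monocyte level by construction, so this value does not test the difference. Hsp90ab1 had a log2 difference of 0.00 (SE 0.09, adjusted p = 0.99). Hsph1 was at log2 -0.50 (SE 0.24, adjusted p = 0.0583) and did not pass the threshold; it was called in 8 of the 20 fits that left out 1 library. Its range in monocytes, 23.5 to 206 CPM, covered the range in macrophages, 33.9 to 125 CPM.

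Hspe1 went the other way, as did its partner Hspd1. Hspe1 was at 29.8, 28.8, 28.6, 62.4 and 28.4 CPM in young saline monocytes and at 30.9, 27.2, 30.9, 34.9 and 29.5 CPM in old ones. In macrophages it was at 42.5, 57.2, 41.8, 33.3 and 37 CPM in young and at 44.0, 41.0, 34.5, 42.9 and 31.5 CPM in old saline mice. A single young monocyte library, at 62.4, lay above every macrophage library. Hspe1 was 1.23-fold higher in macrophages (log2 0.30, SE 0.12, adjusted p = 0.0266). Without that monocyte library the log2 difference was 0.45 (adjusted p = 0.000122), and without young saline macrophage replicate 2 it was 0.23 (adjusted p = 0.0815) and no longer called. The call also ended without any 1 of the other four young saline monocyte libraries (adjusted p from 0.0523 to 0.0536), and without replicate 4 of old and 2 and 3 of young saline monocytes together (0.26, adjusted p = 0.0843). Hspd1 was 1.77-fold higher in macrophages (adjusted p = 5.12e-10), with 84.5 to 124 CPM there and 38 to 78.0 in monocytes. Hsf1 itself was 1.58-fold lower in macrophages (log2 -0.66, SE 0.11, adjusted p = 1.15e-06).

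The 6 lists of other chaperone and Hsf1 target genes with more than 10 tested members had medians between -0.03 and 0.76 in this comparison, where the members were at -0.73. Most of the tested Hsf1 targets, among them Bag3 and Hspd1, are also counted in another of these lists, so the lists are not independent. Among 26 tested co-chaperones of the Hsp70 and J-domain family, 12 were called higher in macrophages and 3 lower, among them Bag3 (log2 0.93), which links Hsp70 to autophagy, and Dnajc7 (-0.82). Of 18 Hsp90 co-chaperones 8 were higher and 4 lower, with Fnip2 at 1.83 and Ahsa2 at -0.93. Of 14 subunits of the cytosolic chaperonin TRiC and of prefoldin, 3 were higher and 6 lower. Mitochondrial chaperones and proteases were higher in 11 of 12 and lower in 1, with the mitochondrial Hsp70 gene Hspa9 at log2 1.19, the protease subunit Clpp at 1.12 and Htra2 at -0.85. Of 15 chaperones of the endoplasmic reticulum 13 were higher and none lower, with the disulfide isomerase Pdia4 at 1.62 and calreticulin, Calr, at 1.35. Known Hsf1 targets other than the members were higher in 7 of 17 and lower in 3, with Zfand2a at 1.26 and Dedd2 at -1.25. Among 4 tested small heat shock genes 1 was higher and 1 lower, and among 8 heat shock factors and their regulators 4 were higher and 4 lower. List medians were 0.76 for mitochondrial genes, 0.65 for the endoplasmic reticulum, 0.12, 0.22 and -0.03 for the Hsp70, Hsp90 and TRiC lists, and 0.09 for the Hsf1 targets.

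Most genes known to respond to tissue dissociation were lower in macrophages, as were Hspa1a and Hspa1b. Of 26 such genes, 22 were called lower in macrophages and 2 higher (median log2 -1.28). Klf2 was at -4.78, Nr4a1 at -4.73, the eIF2α phosphatase subunit Ppp1r15a at -3.03 and Atf3 at -2.87, while Egr2 was at 4.22. Their summed level was 16533 to 29290 CPM in monocytes and 5094 to 11397 CPM in macrophages, with every gene of the list detected in each group. Whether these genes differed by cell type or by handling, and their part in the lower Hspa1a and Hspa1b of macrophages, was not tested.

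**Figure D2:**
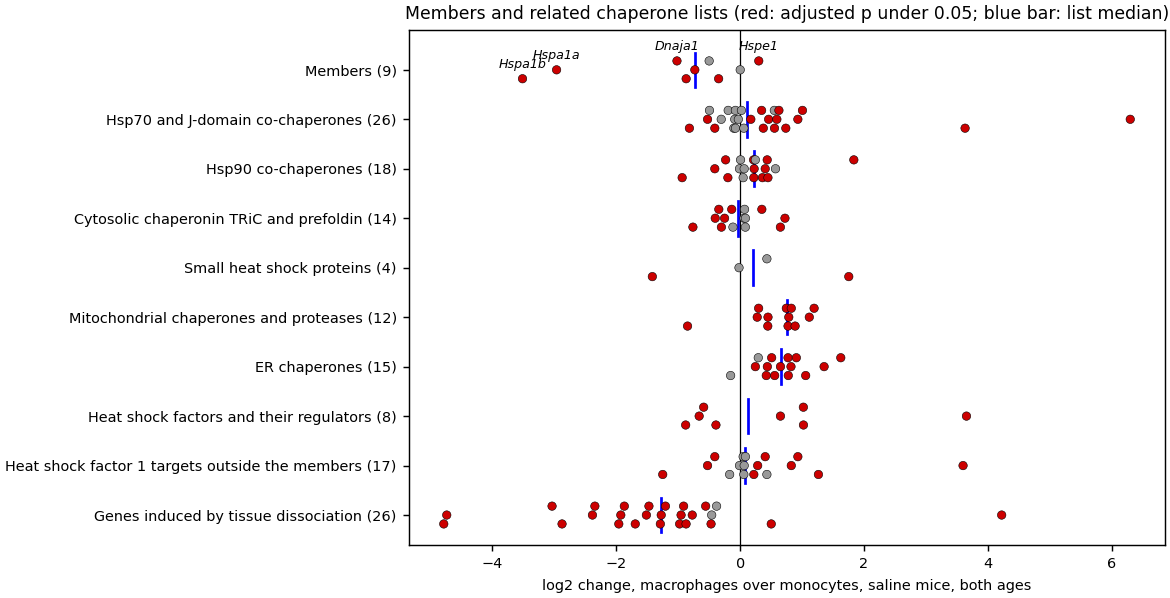
Log2 ratio of macrophage to monocyte level in saline libraries, averaged over ages, for the tested members and 9 lists of related genes (1 dot per gene, red where the adjusted p was below 0.05, blue bar at the list median). The members sit at a median of -0.73, the mitochondrial list at 0.76, the endoplasmic reticulum list at 0.65 and the dissociation list at -1.28.

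Hspa8 rose with age in macrophages and was the member that also rose with ISRIB there. In young macrophages it was at 526, 531, 608, 623 and 772 CPM with saline and at 859, 815, 663 and 872 CPM with ISRIB. In old macrophages it was at 692, 645, 888, 778 and 954 CPM with saline and at 947, 1008, 1075, 857 and 1139 CPM with ISRIB. By mean level young saline was the lowest group and old ISRIB the highest, and each step of age or treatment alone left overlapping ranges. Means were 612 ± 99.5 (SD, n = 5) and 802 ± 95.8 (n = 4) CPM in young macrophages, and 792 ± 130 (n = 5) and 1005 ± 110 (n = 5) CPM in old ones, for saline and ISRIB in that order. These and the following are levels in bulk RNA, where fewer cells of a type and less RNA per cell cannot be told apart.

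Averaged over treatments, Hspa8 was 1.27-fold higher in old than in young macrophages (log2 0.35, SE 0.08, adjusted p = 0.0133). Hsp90aa1 was 1.24-fold higher (log2 0.31, SE 0.07, adjusted p = 0.0125). These were the 2 of 9 members called, both higher; over all genes in this contrast 3.12% were called higher. Hsp90aa1 was at 77.4, 86.1, 81.5, 71.4 and 89.5 CPM in young saline macrophages and at 102, 88.5, 92.8, 88.3 and 125 CPM in old ones. With ISRIB the young libraries were at 86.5, 83.1, 69.0 and 88.3 CPM and the old ones at 99.7, 93.0, 109, 105 and 107 CPM. The saline groups overlapped at 88.3 to 89.5 CPM, and the ISRIB groups did not overlap. Both calls held with each of the 19 libraries left out in turn. In the fit of all 39 libraries Hsp90aa1 was not called (adjusted p = 0.277).

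The other members stayed under the threshold in that average. Hsp90ab1 was at log2 0.23 (adjusted p = 0.0565), Hsph1 at 0.43 (adjusted p = 0.0984) and Hspa1b at 1.68 (adjusted p = 0.109), and Hspe1 was at -0.02. The median over the 9 members was 0.29, and over all genes tested 0.00. Hsf1 was at 0.30 (adjusted p = 0.173). The number of all genes called in this average ran from 340 to 975 over the alternative settings. Over the fits without 1 library it ran from 415 to 723. DESeq2 called 2 more members in this average, Hsp90ab1 (adjusted p = 0.0243) and Hsph1 (adjusted p = 0.0488). Without young saline replicate 5 edgeR called Hspa1b, at 2.55 (adjusted p = 0.0195), and Hsph1, at 0.51 (adjusted p = 0.0465). Hsp90ab1 was called without replicate 1, 2 or 4 of old saline macrophages or replicate 4 of old ISRIB macrophages, at 0.24 to 0.26 (adjusted p from 0.0243 to 0.0493).

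Within a single treatment no member passed. With saline, 1.16% of all genes were called between old and young macrophages, and 0 of 9 members were by edgeR, while DESeq2 called Hspa8 (log2 0.37, adjusted p = 0.0462) and Hsph1 (log2 0.68, adjusted p = 0.0378). At an unadjusted p below 0.05 there were 5 members and 12.7% of all genes. The widest difference was that of Hspa1b, log2 2.82 (SE 0.83, adjusted p = 0.102). Its young saline libraries held 3, 2, 2, 1 and 50 counts and its old ones 4, 10, 80, 17 and 221. Without young replicate 5 the difference was 4.56 (adjusted p = 0.024), without old replicate 1 it was 3.12 (adjusted p = 0.0416) and without old replicate 2 it was 3.09 (adjusted p = 0.0453). With ISRIB, 0.937% of all genes were called by edgeR, and 0 of 9 members by edgeR or DESeq2; 3 members and 12.2% of all genes had an unadjusted p below 0.05. Old and young ISRIB libraries did not overlap for 2 members, Hsp90aa1 and Dnaja1, against 4.87% of all genes. Dnaja1 was at 61.6, 61.5, 49.4 and 60.1 CPM in young and at 66.8, 70.2, 65.7, 63.7 and 67.2 CPM in old ISRIB macrophages, a log2 difference of 0.20 (SE 0.12, adjusted p = 0.549).

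Other values moved with age in these macrophage libraries. B cell markers summed to 2.5 to 6.03 CPM in young saline, 3.87 to 12.8 in young ISRIB, 14.6 to 143 in old saline and 63.2 to 214 in old ISRIB macrophages, with all 7 markers detected in each group. Monocyte markers ran the other way, at 659 to 1017, 459 to 704, 298 to 588 and 261 to 425 CPM in the same order. T and NK cell markers (7 genes) summed to 1.31 to 3.22, 1.08 to 4.34, 4.86 to 12.2 and 6.32 to 19.4 CPM, with Ncr1 at 0 in both young groups. Dendritic cell markers (6 genes, all detected) summed to 9.05 to 13.7, 7.23 to 14.1, 16.5 to 25.7 and 21.0 to 27.6 CPM, so old and young libraries did not overlap for either list. Neutrophil markers (7 genes) summed to 46.8 to 60.3, 50.4 to 70.9, 66.2 to 90.7 and 73.6 to 83.2 CPM, with Ly6g at 0 in every macrophage library and Mpo at 0 in both saline groups. The 26 dissociation genes summed to 5784 to 7272 CPM in young saline and 7385 to 11073 CPM in old saline libraries, which did not overlap, and to 5094 to 11397 and 6748 to 8794 CPM with ISRIB, which did. Among them Ppp1r15a (log2 0.82, adjusted p = 0.000478) and Nfkbia, the inhibitor of NF-κB (log2 0.45, adjusted p = 0.0184), were called higher with age in the average. The part of these cells and genes in the differences of Hspa8 and Hsp90aa1 was not tested.

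Few related genes passed the test with age in macrophages. In the average over treatments those that rose were Zfand2a, an Hsf1 target that tunes the proteasome (log2 0.37, adjusted p = 0.0221), Hspa9 (log2 0.21, adjusted p = 0.0241) and Htra2 (log2 0.40, adjusted p = 0.0408). Fkbp5, an Hsp90 co-chaperone induced by glucocorticoids, was lower (log2 -0.59, adjusted p = 0.0372). Its means differed little with saline, at 81.1 ± 18.9 CPM in young and 76.5 ± 12.9 CPM in old macrophages. With ISRIB they were 159 ± 82.0 and 74.0 ± 7.94 CPM (SD), so the young ISRIB group stood apart with a wide spread. No other gene of the 8 chaperone and heat shock factor lists was called in that contrast. With saline alone Zfand2a was at 0.60 (adjusted p = 0.0203), and with ISRIB alone Fkbp5 was at -1.10 (adjusted p = 0.0214).

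ISRIB in macrophages left the members other than Hspa8 without a call. Averaged over ages, Hspa8 was 1.29-fold higher with ISRIB (log2 0.37, SE 0.08, adjusted p = 0.0341), where 0.452% of all genes were called higher. The call depended on which libraries entered: it was lost in 13 of 19 fits that left out 1 library, with adjusted p from 0.00729 to 0.0983 over the 19, and in the fit of all 39 libraries (adjusted p = 0.0795). The other 8 members lay between -0.21 and 0.07, with adjusted p of 0.638 or more. In old macrophages alone Hspa8 was at 0.35 (SE 0.11, adjusted p = 0.349), and in young ones at 0.39 (SE 0.12, adjusted p = 0.177). edgeR called 0 members and 0% of genes in either age. At an unadjusted p below 0.05 there was 1 member in old macrophages, beside 9.14% of all genes, and 1 in young ones, beside 12.4%. DESeq2 called no member in either. The difference of the ISRIB effects between ages was -0.04 for Hspa8 and -2.28 for Hspa1b (SE 1.17, adjusted p = 0.954). edgeR called 0 members and 0% of all genes in this difference, and 0 members and 5.10% of genes had an unadjusted p below 0.05. No chaperone of the related lists was called for ISRIB in macrophages; of the dissociation list Socs3 fell by 0.42 on the log2 scale in the average over ages (adjusted p = 0.0429).

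**Figure D3:**
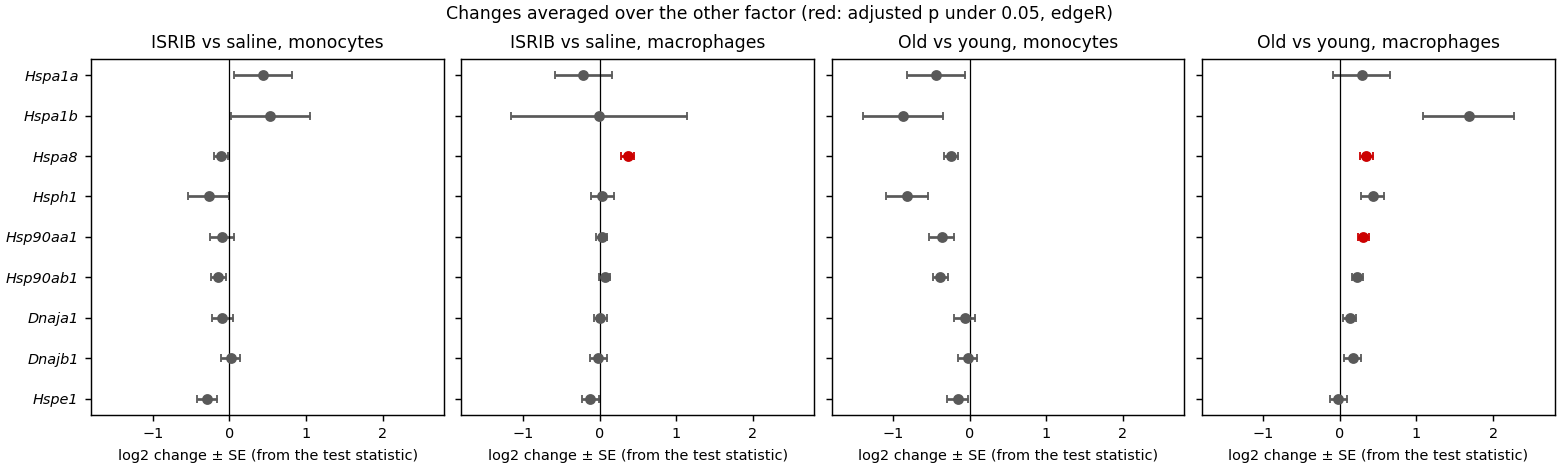
Log2 change of the 9 tested members with ISRIB (averaged over ages) and with age (averaged over treatments) in macrophages and in monocytes; bars are standard errors from the test statistic. In macrophages Hspa8 stands at 0.37 with ISRIB and at 0.35 with age, and Hsp90aa1 at 0.31 with age, while in monocytes all 9 points for age lie below 0 and none was called by edgeR fitted to the monocyte libraries.

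In monocytes the members had negative differences with age, and edgeR fitted to the monocyte libraries called none of them. Hsp90ab1 was at 1307, 1730, 1383, 1200 and 1122 CPM in young saline monocytes and at 869, 724, 1128, 1197 and 757 CPM in old ones. With ISRIB the young libraries were at 1164, 912, 1023, 1241 and 1219 CPM and the old ones at 833, 818, 944, 1023 and 1077 CPM. Old libraries were lower in both treatments with an overlap in each. Hspa8 was at 1347, 1470, 1325, 1452 and 1163 CPM in young saline monocytes and at 819, 894, 1083, 1344 and 802 CPM in old ones. A single old library, at 1344, reached into the range of the young saline libraries of Hspa8. With ISRIB the means of Hspa8 were close, at 1096 ± 83.5 CPM in young and 1060 ± 173 CPM in old monocytes (SD, n = 5 each).

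Averaged over treatments all 9 members had a negative difference in monocytes, from -0.87 to -0.03, with a median of -0.37 beside 0.00 over all genes. Hsp90ab1 was at -0.38 (SE 0.10, adjusted p = 0.178) and Hsph1 at -0.82 (SE 0.27, adjusted p = 0.368). edgeR called 0 members beside 0.123% of genes, and 4 members, Hspa8, Hsph1, Hsp90aa1 and Hsp90ab1, beside 8.24% of genes had an unadjusted p below 0.05. DESeq2 called 1 member, Hsp90ab1 (log2 -0.38, adjusted p = 0.0482), and so did edgeR fitted to all 39 libraries (log2 -0.39, adjusted p = 0.0402). Without replicate 4 of old saline monocytes edgeR called Hsph1, at -1.17 (adjusted p = 0.0212). With saline alone the 9 members lay between -1.07 and -0.03, with Hspa8 at -0.44 (SE 0.13, adjusted p = 0.278) and Hsp90ab1 at -0.51 (SE 0.14, adjusted p = 0.244). edgeR and DESeq2 called 0 members there, beside 0.0247% of genes by edgeR, and 4 members and 8.81% of genes had an unadjusted p below 0.05. With ISRIB alone edgeR called 0 members and 0% of genes, DESeq2 called 0 members, and 0 members and 6.60% of genes had an unadjusted p below 0.05.

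The change with age under saline differed between the cell types for 2 members. For Hspa8 the change was 0.82 greater on the log2 scale in macrophages than in monocytes (SE 0.18, adjusted p = 0.0357), and for Hsp90ab1 it was 0.77 greater (SE 0.18, adjusted p = 0.0490). Both stood higher in old saline macrophages, at 792 ± 130 against 612 ± 99.5 CPM for Hspa8 and 1222 ± 209 against 1034 ± 30.3 CPM for Hsp90ab1 (SD, n = 5 each). Both stood lower in old saline monocytes, at 988 ± 228 against 1351 ± 123 CPM and 935 ± 216 against 1349 ± 235 CPM. In this contrast 0.147% of all genes, 20 in number, were called higher. All 9 members had a positive difference, with a median of 0.82 beside 0.02 over all genes. Leaving out 1 library ended the call of Hspa8 in 11 of 20 fits (adjusted p from 0.00841 to 0.107) and that of Hsp90ab1 in 13 of 20 (adjusted p from 0.0184 to 0.143). The call of Hsp90ab1 also ended with the replicate number as a block (0.78, adjusted p = 0.058) and without replicate 4 of old and 2 and 3 of young saline monocytes (0.72, adjusted p = 0.0724). Without replicate 4 of old saline monocytes 5 members were called, among them Hsph1 at 2.33 (adjusted p = 0.00359) and Hspa1b at 5.07 (adjusted p = 0.0362). Over the 20 fits without 1 library, 8 to 71 of all genes were called in either direction. Of the dissociation list Nfkbia also differed, at 1.31 (adjusted p = 0.0149), and the part of those genes in the difference was not tested.

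ISRIB in monocytes gave no call for any member. In old monocytes the log2 changes ran from -0.25 to 0.73, and edgeR called 0 members and 0% of genes; 0 members and 7.54% of genes had an unadjusted p below 0.05. In young monocytes they ran from -0.38 to 0.67, with 0 members and 0% of genes called and 1 member, Hspa8 at -0.30 (SE 0.13, adjusted p = 0.727), and 6.65% of genes at an unadjusted p below 0.05. Averaged over ages edgeR called 0 members and 0% of genes, and 1 member, Hspe1 at -0.29 (adjusted p = 0.651), and 7.49% of genes had an unadjusted p below 0.05. The difference of the ISRIB effects between ages gave 0 members and 0% of genes, with 0 members and 7.11% of genes at an unadjusted p below 0.05. DESeq2 called no member in any of these 4 contrasts. Hspa1a was at 39.7, 53.1, 13.4, 71.7 and 48.8 CPM in young ISRIB monocytes and at 59.0, 12.5, 29.2, 20.2 and 22.8 CPM in old ones, overlapping the saline groups. No gene of the related lists was called in any contrast within monocytes.

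Spread between libraries of the same group was unequal among the members. The coefficient of variation within a group (SD over mean CPM) ran from 42.8% to 149% over the 8 groups for Hspa1b and from 26.4% to 74.2% for Hspa1a. In macrophages part of the Hspa1b libraries held only 1 to 4 counts. For Hsph1 it reached 88.7%, in old saline monocytes. The constitutive genes spread less, with at most 23.1% in any group for both Hspa8 and Hsp90ab1. Replicate 4 of old saline monocytes was the highest of its group for all of Hspa1a, Hspa1b, Hspa8, Hsph1, Hsp90aa1, Hsp90ab1, Dnaja1, Dnajb1 and Hspe1. Replicate 5 of old saline macrophages was the highest of its group for Hspa1a, Hspa1b, Hspa8, Hsph1, Hsp90aa1, Hsp90ab1 and Dnaja1 but not for Dnajb1 or Hspe1.

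Once group means were removed, Hspa1b and Dnajb1 rose and fell with Hspa1a from library to library in both cell types. The deviations of log2 CPM from the group mean were correlated with those of Hspa1a, with p-values from 100000 permutations of libraries within groups, adjusted over 24 relations. Over the 20 monocyte libraries Pearson's r was 0.93 for Hspa1b (adjusted permutation p = 0.00024, from the smallest p the permutations can give; Spearman's rho 0.98). It was 0.75 for Dnajb1 (adjusted permutation p = 0.0103; rho 0.67, adjusted p = 0.0376). It was 0.61 for Hsph1 (adjusted permutation p = 0.0396; rho 0.61, adjusted p = 0.0573) and 0.56 for Dnaja1 (adjusted permutation p = 0.0396; rho 0.61, adjusted p = 0.041). Hsp90aa1 (r = 0.59) and Hsf1 (r = 0.58) had an adjusted permutation p of 0.0483 each, with rho of 0.46 (adjusted p = 0.154) and 0.55 (adjusted p = 0.0823). Hspa8 at 0.43, Hsp90ab1 at 0.40 and Hspe1 at 0.29 did not pass the adjustment, with adjusted p of 0.124, 0.188 and 0.43.

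Over the 19 macrophage libraries 3 members passed the adjustment. Hspa1b was at r = 0.69 (adjusted permutation p = 0.0072; rho 0.74, adjusted p = 0.0106), Dnajb1 at 0.69 (adjusted permutation p = 0.0124; rho 0.65, adjusted p = 0.041) and Hsph1 at 0.62 (adjusted permutation p = 0.0394; rho 0.54, adjusted p = 0.0927). Hspa8 at 0.51 (adjusted permutation p = 0.0769), Hsp90ab1 at 0.50 (adjusted p = 0.135) and Dnaja1 at 0.41 (adjusted p = 0.124) did not pass. Hsp90aa1 at 0.14 (adjusted p = 0.635), Hsf1 at 0.13 (adjusted p = 0.654) and Hspe1 at -0.33 (adjusted p = 0.238) did not pass either, so Hspa8 and Hsp90ab1 stood above Dnaja1, Hsp90aa1 and Hsf1 here and below them in monocytes. The difference between the cell types was not tested. Without the 2 libraries farthest from the median of Hspa1a, r in monocytes was 0.95 for Hspa1b, 0.75 for Dnajb1, 0.57 for Dnaja1, 0.53 for Hsph1, 0.47 for Hsp90aa1 and 0.42 for Hsf1. In macrophages it was then 0.72 for Hspa1b, 0.66 for Dnajb1 and 0.64 for Hsph1. Hspa1a and Hspa1b share sequence, and the part of shared reads in their r was not tested. The mean of the dissociation genes had r = 0.52 with Hspa1a in monocytes (adjusted permutation p = 0.0756; rho 0.59, adjusted p = 0.0573) and 0.19 in macrophages (adjusted p = 0.42). The library total had r = -0.14 (adjusted p = 0.654) and 0.24 (adjusted p = 0.287). The part of handling in this variation was not tested.

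**Figure D4:**
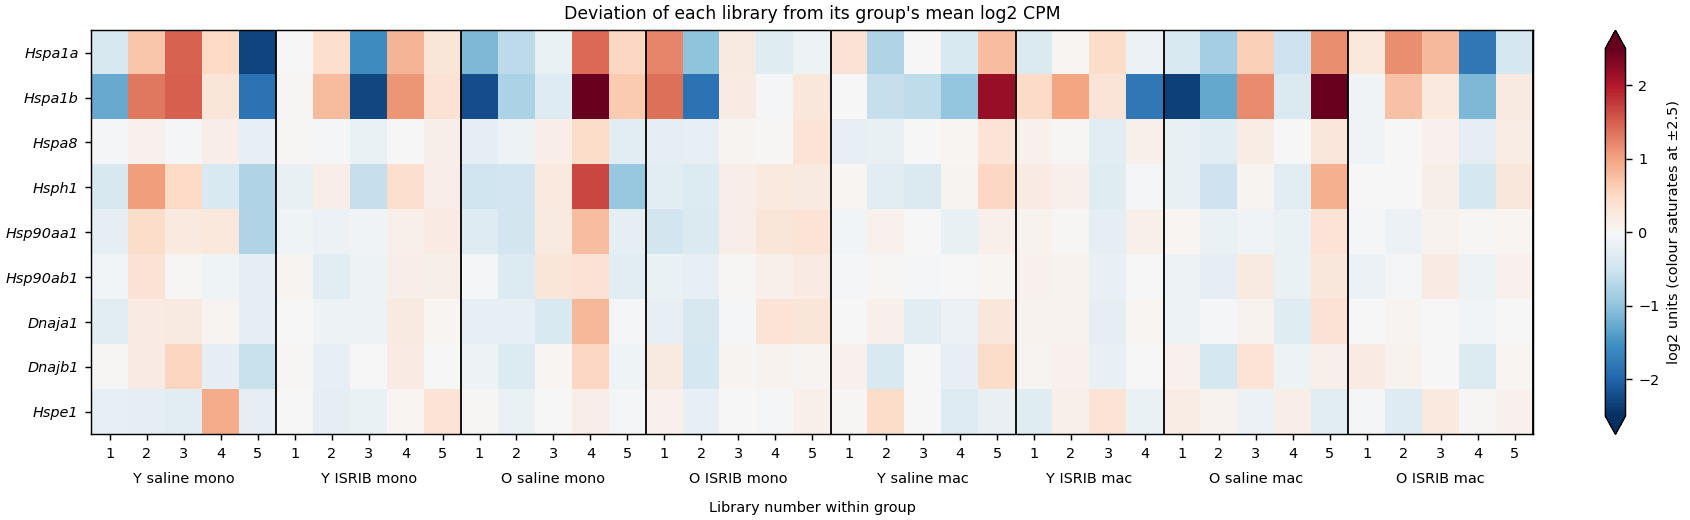
Deviation of each library from the mean log2 CPM of its own group, for each tested member (colour scale in log2 units, saturating at 2.5 either way). Hspa1a and Hspa1b have the strongest colours and match in sign in most libraries, and replicate 4 of old saline monocytes and replicate 5 of old saline macrophages are high for most members.

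Outside the 10 genes, 3 Hsp90 partners were among the 5 whose pattern was most like theirs in monocytes. Over the 20 monocyte libraries the mean standardized level of the tested members correlated most with Stip1, the adaptor that joins Hsp70 to Hsp90 (r = 0.91), followed by the Hsp90 co-chaperone Fkbp4 (0.86), Rangap1 (0.82), Tra2a (0.82) and the Hsp90 co-chaperone Ptges3 (0.81). Over the 19 macrophage libraries the nearest were Flvcr2 (r = 0.86), Trib1, Afap1, Thbd and Cdkn1a (0.84). Taken alone, Hspa1a was nearest to Usp6nl in monocytes (r = 0.81) and to Megf11 in macrophages (r = 0.82). These correlations were searched over all tested genes, include the differences between groups and share each library's depth, so they are a description with no p.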

How the data were processed

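PolyA-selected libraries were made from 3 ng of total RNA per the labels' protocols. The submitters' processing notes name bcl2fastq 2.19.1, FastQC, Trimmomatic 0.36, STAR 2.6.0, HTSeq 0.11.2 and build mm10; which did what, with which settings, annotation and strand, is not given in the sources used here. The deposited table holds unscaled counts as the authors made them, integers for each Ensembl gene in each library. Symbols came from GENCODE vM21 (GRCm38) for 42462 of 43430 IDs (97.8%), and 18236 genes had no count.

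Genes passing a minimum count of 10 and total of 15 (filterByExpr) were tested by edgeR 4.0.16 with limma 3.58.1 in R 4.3.3, using TMM scaling, the quasi-likelihood test and Benjamini-Hochberg adjustment, called at 0.05. Macrophages (12171 genes) and monocytes (12170) were fitted apart, and comparisons between them used 1 fit of 39 libraries (13587). The scripts were tested on simulated data. Alternatives were DESeq2 1.42.0, limma voom, RLE scaling, no filter, a replicate block, summed Hspa1a and Hspa1b, 1 fit of all libraries, each library left out, and 2 settings chosen after seeing the data. All 76 pairs of libraries within groups differed beyond counting noise (chi-square per degree of freedom 7.04 to 52.8). The 10 members and the lists were chosen with earlier results of these data known. All members, Hsf1 and Hspd1 could be named; from each list, up to 5 called genes with the largest change at a mean of at least 5 CPM; and the 5 genes most correlated with the members or Hspa1a.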

Additional observations from a re-analysis of the deposited data

Results flagged for a closer look

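Single libraries stood apart from the rest of their group in 6 of 72 combinations of gene and group tested, by the gap to the nearest library relative to the group's range. For normally distributed values chance alone would flag about 1 in 20 groups. The gaps were taken in CPM and not on a log scale, so the chance rate for these genes was not known. Of the 6, 3 were replicate 4 of old saline monocytes, with Hspa1b at 75.2 CPM (next 18.1), Hsph1 at 147 CPM (next 53.9) and Dnaja1 at 196 CPM (next 105). In young saline macrophages replicate 5 had Hspa1b at 3.14 CPM (next 0.508). In young ISRIB macrophages replicate 3 had the lowest Dnaja1, 49.4 CPM (next 60.1). In young saline monocytes replicate 4 had Hspe1 at 62.4 CPM (next 29.8).

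The change with age under saline differed between macrophages and monocytes for Hspa8, by 0.82 on the log2 scale (adjusted p = 0.0357), and for Hsp90ab1, by 0.77 (adjusted p = 0.0490), by edgeR's test of the difference itself. Neither call was stable: leaving out 1 library ended that of Hspa8 in 11 of 20 fits and that of Hsp90ab1 in 13 of 20.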

How the results depend on the processing

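Of the recomputed log2 changes of members, 545 kept direction and side of the threshold, 51 lost the call, 8 gained one and 2 reversed; all 80 group levels stayed within 1 SD when scaled by library totals. The reversals came from single libraries: Hspa1b with ISRIB in old macrophages was 0.11 (adjusted p = 0.972) without old saline replicate 5 and ran from -1.45 to 0.11 over the fits without 1 library, and the Hspa1a difference of ISRIB effects in monocytes was 0.069 (adjusted p = 0.996) without old saline replicate 4 and ran from -0.91 to 0.069. Causes of the shifts below were not tested.

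Members called, by setting: without a filter, 1 for ISRIB in old and 1 in young macrophages (Hspa8 in both), 3 for age in saline macrophages and 5 for age averaged in macrophages. DESeq2 gave 2 for age in saline macrophages, 4 for age averaged in macrophages and 1 for age averaged in monocytes. The number of all genes called also changed with the setting (below), so these counts do not single out the members. The fit of all 39 libraries gave 0 for ISRIB averaged in macrophages, 1 for age averaged in macrophages and 1 in monocytes. Leaving out 1 library gave 0 to 1 for ISRIB in young and averaged macrophages, 0 to 3 for age in saline macrophages, 2 to 4 for age averaged in macrophages, 0 to 1 in monocytes, 5 to 8 between cell types and 0 to 5 for the difference of saline age effects. All other contrasts stayed at 0 to 0. Over all genes the fits of the named contrasts called, in the same order, 0 to 304, 13 to 649, 47 to 289, 415 to 723, 6 to 25, 9333 to 9593 and 8 to 71.

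With the replicate number as a block, 3 members were called for age in saline macrophages and 1 for the difference of saline age effects. The labels do not say whether equal numbers mark a pair or a batch. Residuals of same-numbered libraries correlated at -0.148 to 0.165 in macrophages and -0.191 to 0.242 in monocytes. Those of differently numbered libraries correlated at -0.224 to 0.224 and -0.258 to 0.24. These ranges cannot show whether the numbers carry a pairing.

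Counts over all genes moved more. For ISRIB averaged in macrophages edgeR called 101 genes, against 440 by DESeq2, 169 by voom, 640 without a filter, 343 with the replicate block, 17 in the fit of all libraries and 450 without replicates 5 of old and young saline macrophages. For age in saline macrophages 141 were called, against 294 by DESeq2, 468 without a filter, 60 in the fit of all libraries and 22 without those 2 libraries. For age in ISRIB macrophages 114 were called, against 260, 405 and 50 by DESeq2, without a filter and in the fit of all libraries. For age averaged in macrophages 592 were called, against 975 without a filter, 340 in the fit of all libraries and 386 without those 2 libraries. For ISRIB alone 0 genes were called in old and 0 in young macrophages, against 43 and 105 by DESeq2 and 220 and 224 without a filter. For the difference of saline age effects 34 were called, against 141 by DESeq2, 22 by voom and 76 without a filter. In monocytes age averaged gave 15, against 83 by DESeq2, 40 without a filter and 44 in the fit of all libraries; age in saline gave 3, against 46, 15 and 34; age with ISRIB 0, against 22, 41 and 33; and ISRIB in old mice 0, against 14, 21 and 17.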
